A study of Mus musculus with 12 samples.

Results

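The genes described are 10 members of the Notch pathway: the receptors Notch1, Notch2, Notch3 and Notch4, the ligands Jag1, Jag2 and Dll4, and the target genes Hey1, Hey2 and Heyl. They were taken by name, as every gene probe carrying one of these symbols, which gave 12 of the 55681 gene probes on the array and 10 of the 16759 genes tested. RNA of the descending aorta of male C57BL/6 mice was measured at 6 months (n = 6) and at 20 months (n = 6), with 1 single-colour Agilent array per mouse and no pooling. The mice ate standard chow, and the labels name no treatment and no engineered allele at either age. The aorta had been flushed with saline, cleaned of fat and connective tissue and frozen before RNA was extracted. Each value is the mean over all cells of the sample. Markers of brown adipocytes, heart muscle and mesothelium were measured too, as given below. A value need therefore not be that of the vessel wall alone. In such bulk RNA, fewer cells of a type and less RNA per cell cannot be told apart.

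Notch is a receptor that is cut when a ligand on a neighbouring cell pulls on it. An ADAM protease and then the gamma-secretase complex release its intracellular part, which enters the nucleus, joins the DNA-binding protein RBPJ and a Mastermind coactivator, and switches on target genes, chiefly of the Hes and Hey families of transcriptional repressors. In arteries Notch1, Notch4 and Dll4 are best known from endothelium and Notch3 from smooth muscle, while Jag1 on endothelium signals to the muscle layer beneath it. Hey2 and Heyl are read in the vessel wall as outputs of that signal.

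The aorta showed no change of a Notch receptor, ligand or Hey target with age that passed the test. Of the 10 genes, 0 were called at an adjusted p under 0.05 (limma, Benjamini-Hochberg over all genes tested), against 0.316% of all genes. Jag2 came nearest, 1.30-fold higher at 20 months with a 95% interval of 1.07 to 1.56. Heyl stood at 0.797-fold of its level at 6 months, with an interval of 0.623 to 1.02. The intervals of Notch2, Notch3, Jag1 and Hey1 lay between 0.772-fold and 1.20-fold, and that of Notch1 ran from 0.664 to 1.17.

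The probes of Notch1 and Notch2 are shown first, because each of these genes has a pair of probes whose behaviour differed. Sequences are the 60-base probes of the array files, which run in the sense direction, 5′ to 3′. Capitals mark runs of 4 or more of the same base inside the bases shown, so a run cut short by the end can stay in lower case. Of each pair 1 probe is given whole and the other by its first 30 bases.
Notch1, A_55_P2171897: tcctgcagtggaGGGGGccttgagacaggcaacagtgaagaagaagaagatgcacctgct
Notch1, A_55_P2047168, first 30 bases: ttgcttctttccAAAAtcgAAAAgaaagaa
Notch2, A_55_P1982793: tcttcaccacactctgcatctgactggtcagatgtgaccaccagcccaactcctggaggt
Notch2, A_52_P289213, first 30 bases: ccacttgaagtcttgcatagaaatgaacca
In mm9, the build of the array files, the Notch1 probes lie on the minus strand at chr2:26319440-26319499 (A_55_P2171897) and chr2:26314630-26314689 (A_55_P2047168), and the Notch2 probes on the plus strand at chr3:97951233-97951292 (A_55_P1982793) and chr3:97953914-97953973 (A_52_P289213). An annotation of exons in that build was not used here, so exon or UTR is not stated.

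The Notch1 probe A_55_P2171897 stood well above background on 6 of 6 arrays at each age. The other, A_55_P2047168, did so on 0 arrays at either age and was therefore not tested. It has 40.0% G or C and 43.3% A over its 60 bases, against 55.0% and 30.0% for the probe that gave signal. Of the Notch2 probes, A_52_P289213 was well above background on every array, whereas A_55_P1982793 was so on 5 of 6 arrays at 6 months and 3 of 6 at 20 months. In this pair base content went the other way, with 41.7% G or C in A_52_P289213 and 55.0% in A_55_P1982793. Why the probes of a gene differed in signal was not tested. The dim Notch2 probe changed by -0.43 ± 0.29 (log2, SE; adjusted p = 0.759 over probes, limma) and the bright one by 0.05 ± 0.10, so their signs differ, and the 95% interval of each includes 0 (-1.06 to 0.19 and -0.17 to 0.27). The bright probe, which has the higher mean, stood for the gene in all comparisons. With every probe as its own feature, 11 of the 12 were tested and 0 were called (1, that of Jag2, had an unadjusted p under 0.05), against 0.257% of all probes.

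**Figure D1:**
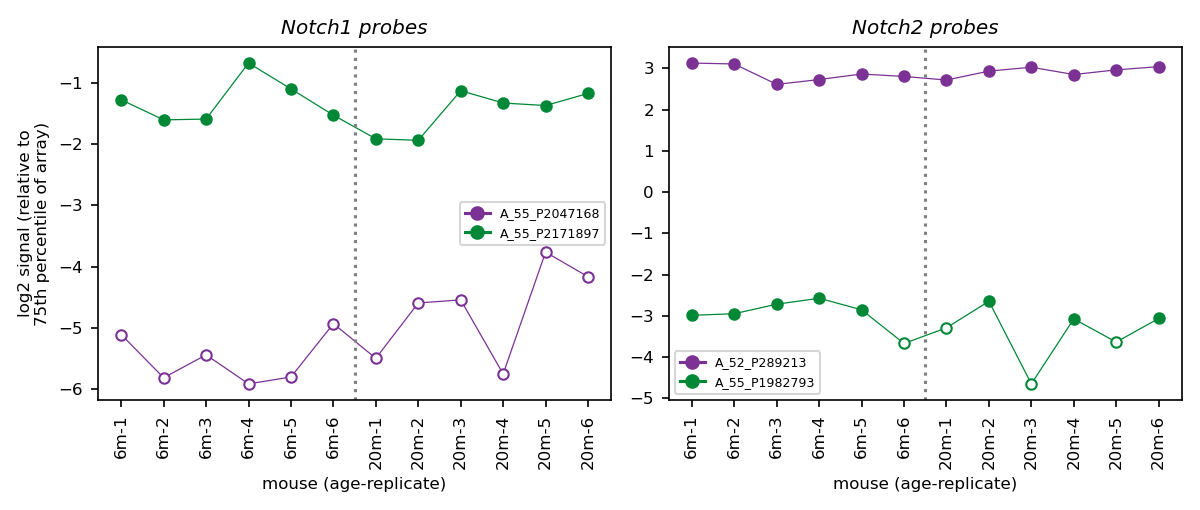
Signal of the Notch1 probes (left) and the Notch2 probes (right) in each of the 12 mice, as log2 signal relative to the 75th percentile of the array; filled circles are arrays on which the spot was well above background and open circles the others, and the dotted line parts 6 from 20 months. All 12 circles of the Notch1 probe A_55_P2047168 are open, and so are 4 of the 12 of the Notch2 probe A_55_P1982793.

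All values that follow are log2 signals relative to the 75th percentile of the gene probes of the same array, so a value of 0 is that percentile and negative values lie below it. Signals of different probes are not set against each other. The 6 arrays of each age were spread over 3 slides with 2 of each age on each, and changes within slides 1, 2 and 3 are given in that order beside each pooled change. The 20-month arrays all lay in one column of the slides and the 6-month arrays in others, so position on the slide and age cannot be told apart. Between 47.5% and 55.8% of gene probes were well above background on an array, and arrays correlated with each other at 0.981 to 0.993 over the tested probes. Across the 16759 genes, 44 were called higher and 9 lower at 20 months.

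Among the receptors, Notch3, which is carried by arterial smooth muscle, was the steadiest. Its signal ran from 2.61 to 2.90 with a median of 2.80 at 6 months and from 2.67 to 2.95 with a median of 2.82 at 20 months. The 2 ages overlapped over nearly their whole range. Its change was 0.05 ± 0.08 (adjusted p = 0.902; 0.04, 0.16 and -0.06 within slides), and 13.0% of all genes had a smaller SD between mice of one age. Notch2, a receptor of smooth muscle and many other cells, ran from 2.61 to 3.13 (median 2.83) at 6 months and from 2.72 to 3.04 (median 2.95) at 20 months. Its change was 0.05 ± 0.10 (adjusted p = 0.920; -0.03, 0.15 and 0.03 within slides). At 20 months the 6 mice lay inside the range of those at 6 months.

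Notch1, the receptor best known from arterial endothelium and from T cell development, varied most of the 4. It ran from -1.61 to -0.68 (median -1.41) at 6 months and from -1.94 to -1.13 (median -1.35) at 20 months. The highest value belonged to replicate 4 at 6 months and the lowest values, -1.92 and -1.94, to replicates 1 and 2 at 20 months. The change was -0.18 ± 0.19 (adjusted p = 0.828; -0.33, -0.36 and 0.15 within slides), and 83.8% of all genes had a smaller SD between mice of one age. The array with the highest Notch1 signal was also the highest in T and NK cell markers: the mean of 8 of 10 listed markers, each centred on its mean over the arrays, was 1.55 there and between -0.67 and 0.22 on the other 11 arrays. The part of T cells in the Notch1 value was not tested. Notch4, a receptor known from endothelium, ran from 0.31 to 1.13 (median 0.84) at 6 months and from 0.68 to 1.22 (median 0.85) at 20 months, a change of 0.07 ± 0.14 (adjusted p = 0.913; 0.10, 0.19 and -0.08 within slides). Replicate 5 at 6 months, at 0.31, was the lowest of all 12 mice, and without it the change was -0.02.

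**Figure D2:**
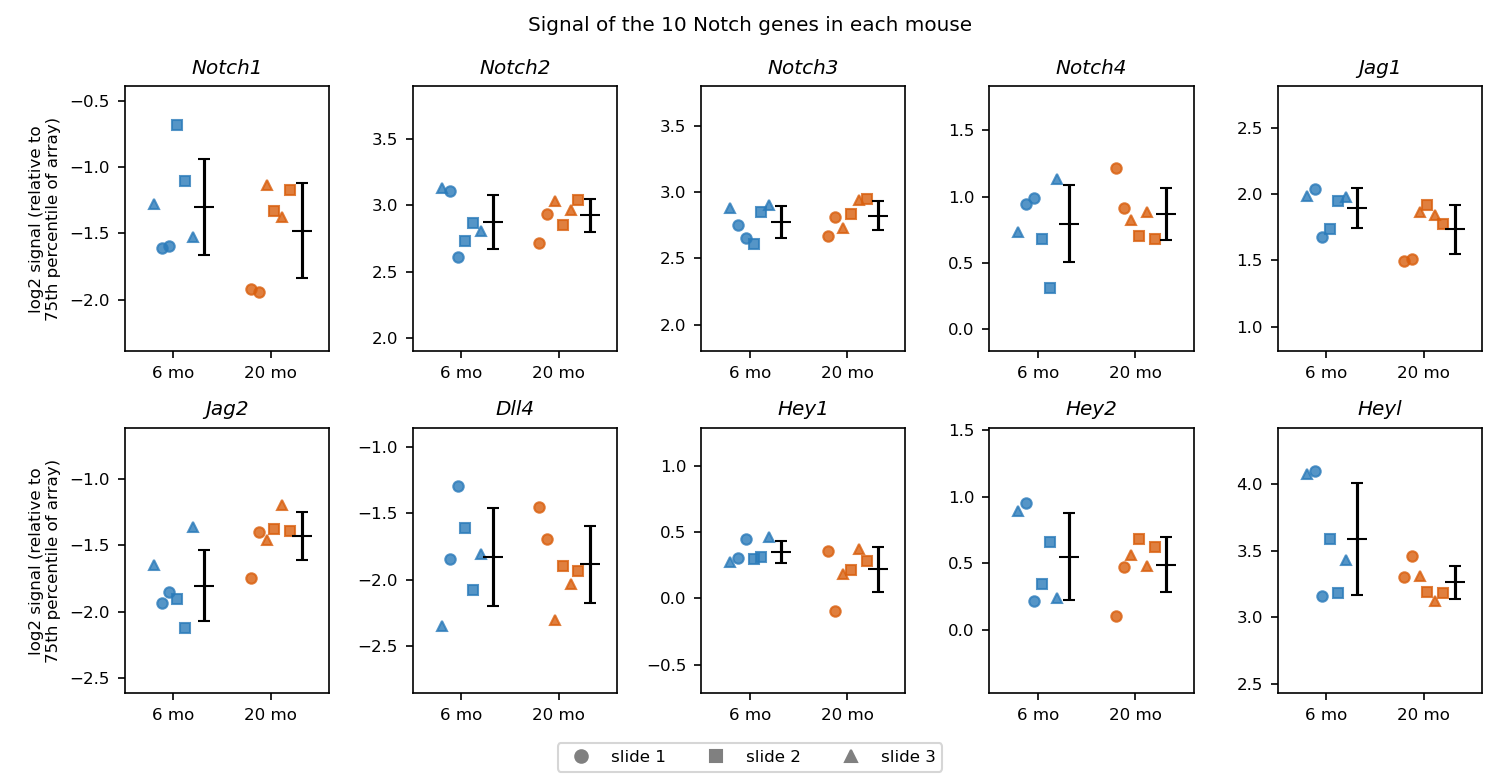
Log2 signal of the 10 genes in each mouse, relative to the 75th percentile of the array, at 6 months (blue) and 20 months (orange); every panel spans the same number of log2 units, point shapes are the 3 slides, and the bar beside each group is the mean with 1 SD (n = 6). The ages overlap in all 10 panels; the 6 mice at 20 months all lie above the median of the 6-month mice for Jag2 and all below it for Jag1 and Heyl.

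The ligands gave the value nearest to the threshold. Jag2, a Notch ligand of the Jagged class, ran from -2.12 to -1.36 (median -1.88) at 6 months and from -1.75 to -1.20 (median -1.39) at 20 months. All 6 old mice lay above the median of the young ones, but the highest young mouse, replicate 6 at -1.36, lay above 5 of the 6 old ones. The change was 0.37 ± 0.13 (unadjusted p = 0.0107, adjusted p = 0.399, limma) and had the same sign within each slide, at 0.32, 0.63 and 0.17. Jag2 was the only one of the 10 genes with an unadjusted p under 0.05, a level that 7.99% of all genes reached. Its adjusted p lay between 0.0576 and 0.989 over the 26 other settings tried, the lowest of them with array weights. The first 30 bases of its probe, A_51_P451338 at chr12:114146887-114146946 on the minus strand (mm9), are given because this value is the one closest to a call.
Jag2, A_51_P451338, first 30 bases: ttgtataaattattcaacggctgtcaggcg

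Jag1, the ligand through which endothelium signals to arterial muscle, ran from 1.68 to 2.03 (median 1.96) at 6 months and from 1.50 to 1.92 (median 1.81) at 20 months. All 6 old mice lay below the median of the young ones. The change was -0.16 ± 0.10 (adjusted p = 0.719; -0.35, 0.01 and -0.13 within slides). The lowest signals, 1.50 and 1.51, came from replicates 1 and 2 at 20 months, which are both on slide 1. Dll4, the Delta-like ligand of arterial endothelium, ran from -2.35 to -1.29 (median -1.82) at 6 months and from -2.30 to -1.45 (median -1.91) at 20 months. Its change was -0.06 ± 0.18 (adjusted p = 0.953; -0.01, -0.07 and -0.09 within slides), with an interval from 0.740-fold to 1.25-fold.

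Of the Hey targets, Heyl had the largest difference. It ran from 3.16 to 4.10 (median 3.51) at 6 months and from 3.12 to 3.46 (median 3.24) at 20 months. At 6 months replicates 1 and 2 stood high, at 4.08 and 4.10, while the other 4 young mice lay between 3.16 and 3.59. All 6 old mice lay below the median of the young ones, and the change was -0.33 ± 0.16 (adjusted p = 0.670, limma; -0.25, -0.20 and -0.54 within slides). The SD between mice was 0.42 at 6 months and 0.12 at 20 months, a difference that was not tested. Without replicate 1 at 6 months the change was -0.23, and without replicate 2 it was -0.23 as well. The probe, A_52_P337259 at chr4:122926975-122927034 on the plus strand (mm9), begins as follows.
Heyl, A_52_P337259, first 30 bases: aatcaTTTTcttcaaggtctttgcccttct

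Hey1, a target in endothelium and in muscle cells, ran from 0.28 to 0.46 (median 0.31) at 6 months and from -0.09 to 0.37 (median 0.25) at 20 months. The change was -0.13 ± 0.08 (adjusted p = 0.739; -0.24, -0.06 and -0.09 within slides). Replicate 2 at 20 months, at -0.09, was the lowest of the 12 mice. Hey2, a repressor known from arterial specification and from smooth muscle, ran from 0.22 to 0.95 (median 0.50) at 6 months and from 0.10 to 0.69 (median 0.52) at 20 months. Its change was -0.06 ± 0.15 (adjusted p = 0.933; -0.30, 0.15 and -0.04 within slides). The 4 lowest Hey2 signals, from 0.10 to 0.35, came from replicate 1 at 20 months and replicates 3, 6 and 4 at 6 months.

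Over the 10 genes the changes were negative in 6 and positive in 4, with a median of -0.06, beside a median of -0.02 over all genes tested. None of the 10 had ages that did not overlap, which 0.817% of all genes had. The members were taken by name, with earlier results of these data known. They are related genes measured on the same 12 arrays and are not replicates of each other.

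**Figure D3:**
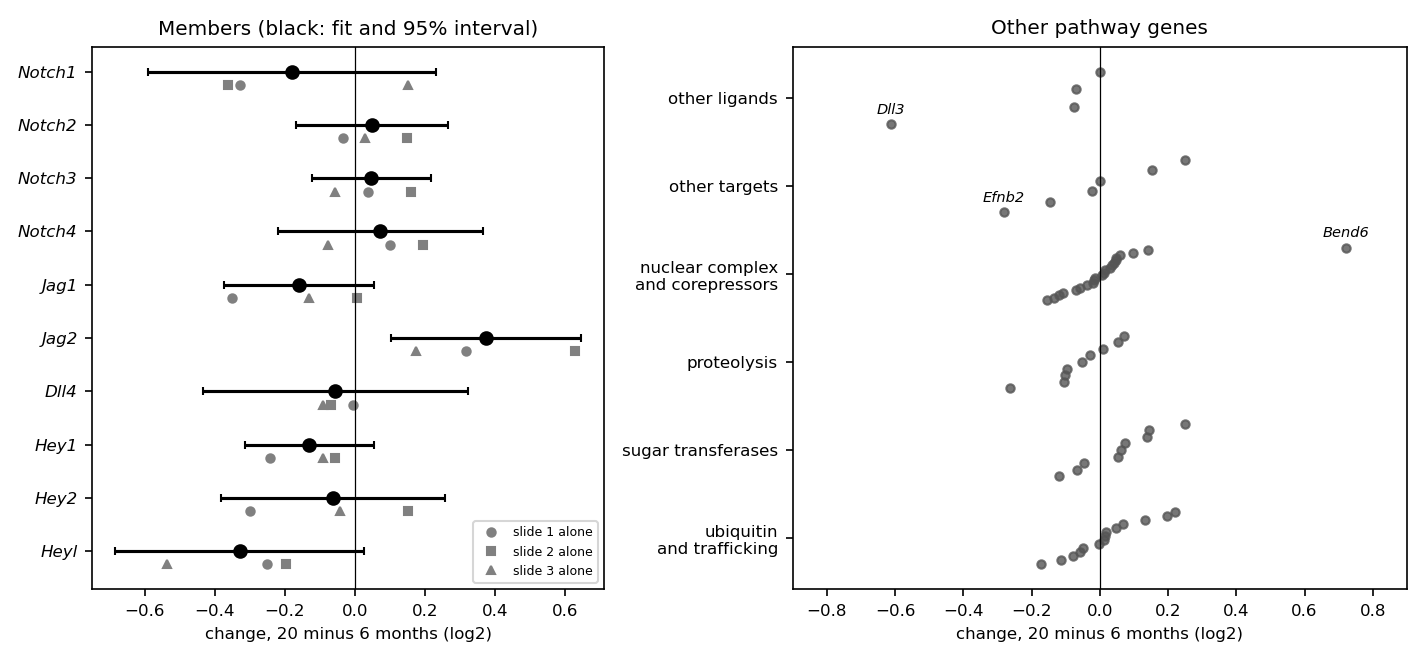
Change from 6 to 20 months (log2) of the 10 genes with the 95% interval of the limma fit in black and the change within each slide in grey (left), and of 64 other genes of the pathway, 1 point each, by role (right). On the left only the interval of Jag2 lies clear of 0; on the right Bend6, Dll3 and Efnb2 lie farthest out in their rows, and none of the 64 was called.

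The rest of the pathway was followed through 67 further genes, of which 64 were measured. Hes5 and Dner have a probe that was above background on 0 arrays, and Aph1c was matched to 0 probes. Of the 64, 0 were called, 33 had a positive and 31 a negative change, and the median change was 0.00072. An unadjusted p under 0.05 was reached by 3 of them (4.69%), Bend6, Dll3 and Efnb2, beside the 7.99% of all genes.

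The ligands outside the chosen 10, Dll1, Dll3, Dlk1 and Dlk2, had a median change of -0.07 over the 4. Dll3, a ligand that binds Notch within its own cell and does not activate it from outside, ran from -2.83 to -1.45 at 6 months and from -3.54 to -2.23 at 20 months. Its change was -0.61 ± 0.27 (adjusted p = 0.587, limma). Dlk2, a Delta-like protein without the receptor-binding DSL domain, changed by -0.07 ± 0.10 (adjusted p = 0.870).

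The other targets had a median change of -0.01 over 6 measured genes. Efnb2, which encodes the arterial surface ligand ephrin-B2, ran from 2.27 to 3.02 at 6 months and from 2.21 to 2.46 at 20 months, with a change of -0.28 ± 0.13 (adjusted p = 0.624). Pdgfrb, the PDGF receptor of mural cells, changed by -0.15 ± 0.12 (adjusted p = 0.775). Hes1, the Hes repressor most widely induced by Notch, changed by 0.15 ± 0.16, and Nrarp, which feeds back on the Notch complex, by 0.25 ± 0.21. None of these 4 was called.

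The nuclear complex and its corepressors were the largest sub-list, with 22 of 22 measured and a median change of 0.01. Rbpj itself, the DNA-binding partner of all 4 receptors, changed by 0.10 ± 0.10. Bend6, a BEN domain protein that binds RBPJ and restrains Notch targets in neural cells, ran from -3.19 to -2.05 at 6 months and from -2.27 to -1.56 at 20 months. Its change, 0.72 ± 0.17, was the largest of the 64 and the ages overlapped (unadjusted p = 0.000999, adjusted p = 0.135, limma). Its adjusted p ran from 0.0377 to 0.398 over the settings tried and was under the threshold with array weights alone. Kat2b, a histone acetyltransferase of the activation complex, changed by -0.16 ± 0.09 (adjusted p = 0.713).

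Proteolysis genes had a median change of -0.05 over 9 measured. Adam17, a protease of the family that makes the first cut, changed by -0.26 ± 0.14 and Psenen, a subunit of gamma-secretase, by -0.10 ± 0.06 (adjusted p = 0.679 and 0.739). The sugar transferases that modify the extracellular part of Notch had a median of 0.06 over 9 genes. Among them Xxylt1, which adds xylose, changed by 0.14 ± 0.08 and Eogt, which adds N-acetylglucosamine, by -0.12 ± 0.09 (adjusted p = 0.699 and 0.762). The genes of ubiquitin transfer and trafficking had a median of 0.01 over 14. The Deltex ubiquitin ligases Dtx1 and Dtx2 changed by 0.20 ± 0.10 and -0.17 ± 0.10 (adjusted p = 0.679 and 0.695).

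Cell markers give the setting of these values. Defining markers of the labelled tissue were present: the smooth muscle genes Myh11 between 6.33 and 7.37 and Acta2 between 9.98 and 10.3 over the 12 arrays, and the endothelial gene Cdh5 between 2.19 and 2.89. The endothelial list (16 of 16 measured) had a median change with age of -0.02 and the smooth muscle list (12 of 12) of -0.00056, and 0 genes of either were called. Ucp1, the defining gene of brown adipocytes, was present on every array at 6.54 to 8.86, and 0 of 7 brown adipocyte genes had a positive change with age (median -0.44, 0 called). The largest shift was in mesothelial genes, of which 0 of 4 had a positive change (median -2.28, from -3.09 to -1.58, 0 called). All 8 macrophage genes had a positive change (median 0.27, 0 called), and 0 of 3 Schwann cell genes did (median -0.28, 0 called). The part of these cells in the values of the Notch genes was not tested. The heart muscle list had a mean of 2.97 in replicate 1 at 20 months and 1.96 in replicate 1 at 6 months, against -1.48 to 0.55 on the other 10 arrays.

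The smooth muscle and brown adipocyte means parted the same 3 arrays from the other 9. With age means removed, replicates 3 and 6 at 6 months and replicate 1 at 20 months had smooth muscle means of -0.36 to -0.30, while the other 9 lay between -0.04 and 0.24. The same 3 had brown adipocyte means of 0.44 to 0.96, while the other 9 lay between -0.64 and 0.03. Hey2 separated along the same line: with its age mean removed it lay between -0.39 and -0.31 in the 3 arrays and between -0.20 and 0.40 in the 9. Notch4 lay on the other side, between 0.19 and 0.35 in the 3 and between -0.49 and 0.15 in the 9. The other 8 genes overlapped between the 3 arrays and the 9, Notch2 among them, at -0.26 to -0.07 against -0.14 to 0.26. How many of all genes part the same 3 arrays was not counted, so the partings are not read as particular to Hey2 and Notch4. Of all genes, 4.83% had an r beyond 0.8 in either direction with Hey2 and 4.65% with Notch4. These partings depended on the scaling, that of the smooth muscle mean included. With each array centred on its median, the smooth muscle mean lay between -0.40 and -0.21 in the 3 arrays and between -0.25 and 0.41 in the 9, while the brown adipocyte mean still parted them, at 0.37 to 1.02 against -0.50 to 0.05. On that scale Hey2 lay between -0.40 and -0.17 in the 3 arrays and between -0.56 and 0.56 in the 9, and Notch4 between 0.12 and 0.48 against -0.54 to 0.31, so both overlapped. Dll4 did not overlap there, by a narrow margin, at 0.168 to 0.498 against -0.43 to 0.166. The distance between the 75th percentile and the median of an array ranged from 3.05 to 3.65.

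Over all 12 arrays, 6 of 40 relations of genes with marker means passed an adjusted p of 0.05 (permutation test). The permutations shuffled values from which age means had already been taken, with no allowance for the means removed. Their p-values are therefore somewhat too small, more so with slide means removed, and calls close to the threshold are not firm. Hey2 had an r of 0.85 with the smooth muscle mean (adjusted p = 0.0074) and -0.88 with the brown adipocyte mean (0.0024). Notch2 had 0.75 and -0.78 with the same means (0.034 and 0.032). Notch4 had 0.76 with the endothelial and -0.75 with the smooth muscle mean (both 0.032). With slide means removed as well, these were 0.44 and -0.70 (adjusted permutation p = 0.387 and 0.0492). Notch1 and Dll4, also known from endothelium, had -0.63 and 0.18 with the endothelial mean, and neither passed (adjusted permutation p = 0.151 and 0.775). Each Hey2 relation passed in 17 of 19 alternatives. Those of Notch2 passed in 7 (smooth muscle) and 10 (brown adipocyte), and those of Notch4 in 9 (endothelial) and 8 (smooth muscle). With each array centred on its median, r was 0.00061 for Notch4 with smooth muscle. With the brown adipocyte mean it was -0.10 for Notch2 and -0.34 for Hey2. Notch4 with endothelial, and Notch2 and Hey2 with smooth muscle, had 0.86, 0.87 and 0.95 on that scale. Because the arrays fell into clusters, the relations were also read within the 9 arrays. These span less of the smooth muscle and brown adipocyte range. There 0 of 40 relations, 10 genes with the endothelial, smooth muscle, heart muscle and brown adipocyte means, passed an adjusted p of 0.05 (permutation test, Benjamini-Hochberg over the 40), and 6 had an unadjusted p under 0.05. Within the 9, Hey2 had an r of 0.51 with the smooth muscle mean and -0.70 with the brown adipocyte mean (rho = 0.55 and -0.38; unadjusted permutation p = 0.162 and 0.0463). Notch2 had an r of 0.62 and -0.78 with the same means (rho = 0.73 and -0.73; unadjusted permutation p = 0.0738 and 0.0129). The adjusted p of these 4 relations lay between 0.309 and 0.423. Notch4 had an r of 0.46 with the endothelial and -0.16 with the smooth muscle mean within the 9 (adjusted permutation p = 0.473 and 0.920). The part of vessel muscle or fat in the Hey2 and Notch4 values was not tested further. Among the 9 arrays Jag2 changed by 0.54 with age (adjusted p = 0.0788, limma, within the range given above) and Heyl by -0.48 (adjusted p = 0.331), and 0 of the 10 genes were called. The 3 arrays with the highest heart muscle or T cell means are another set, of which replicate 1 at 20 months belongs to both, and without those 3 also 0 of the 10 genes were called.

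**Figure D4:**
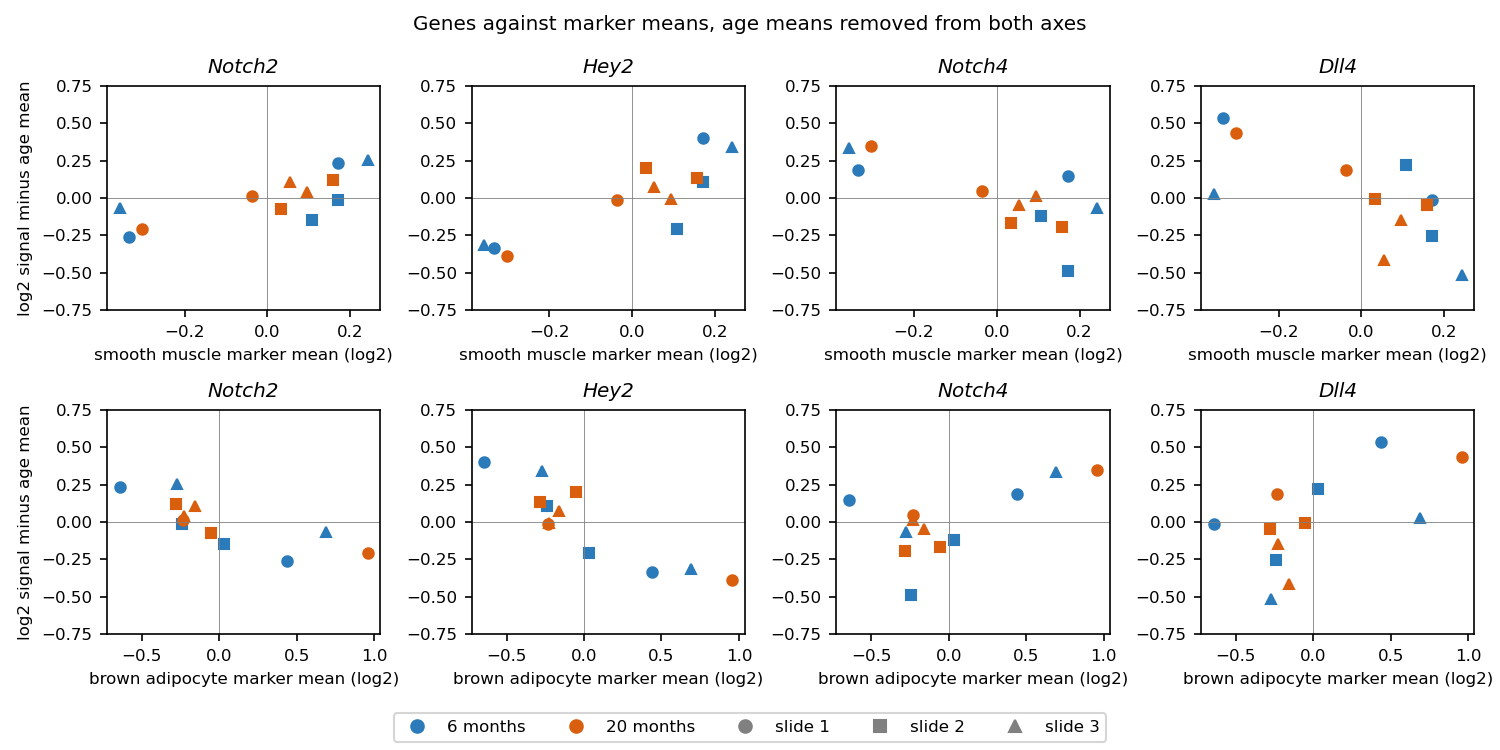
Notch2, Hey2, Notch4 and Dll4 in each mouse against the mean of the smooth muscle markers (top) and of the brown adipocyte markers (bottom), log2 with the mean of each age removed from both axes; colours are ages and shapes are slides. The 3 arrays at the left of the upper panels are the 3 at the right of the lower ones, and they hold the lowest Hey2 and the highest Notch4 values, on the scale of the 75th percentile but not with arrays centred on their median.

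The genes also varied with each other between mice of one age. Of 45 pairs, 27 correlated positively over the 12 mice with age means removed. Of these 45, 10 had an unadjusted p under 0.05 and 3 an adjusted p under 0.05 (two-sided permutation test, 100000 resamples, Benjamini-Hochberg over the 45). As with the marker means, the permutations made no allowance for the means removed, so these p-values are somewhat too small. The share over pairs of all genes was not counted, so these counts are not read as particular to Notch genes. Of all genes, 4.69% had an r beyond 0.8 in either direction with Notch2, 4.83% with Hey2 and 4.18% with Dll4. Notch2 and Hey2 were the closest pair, with Pearson's r of 0.87 (permutation p = 0.00024, adjusted p = 0.0108) and Spearman's rho of 0.78 (permutation p = 0.00387). Without the 2 arrays farthest from the median of Notch2, r was 0.82, and with slide means removed as well it was 0.93. Within the 9 arrays described above r was 0.79 (adjusted p = 0.230 by permutation). Over the 20 alternatives tried, r of Notch2 with Hey2 lay between 0.67 and 0.95, with an adjusted p from 0.00045 to 0.427, and passed the threshold in 14. The pair remained positive in each of these settings, while its call was lost with Spearman's rho, with normexp background correction, without either set of 3 arrays, and without replicate 3 at 6 months (r = 0.85) or replicate 1 at 20 months (r = 0.84).

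Dll4 varied against Notch2 (r = -0.80, permutation p = 0.00196, adjusted p = 0.0346; rho = -0.81, permutation p = 0.00227) and against Jag1 (r = -0.78, permutation p = 0.00231, adjusted p = 0.0346; rho = -0.62, permutation p = 0.0344). Without the 2 arrays farthest from the median of Notch2, r of Dll4 with Notch2 was -0.61. Without the 2 farthest from the median of Jag1, r of Dll4 with Jag1 was -0.72. With slide means removed r was -0.87 for Dll4 with Notch2 and -0.59 for Dll4 with Jag1. Both rested on the scaling of the arrays: when each array was centred on its median in place of its 75th percentile, r was -0.20 for Dll4 with Notch2 and -0.21 for Dll4 with Jag1 (adjusted p = 0.636 for both). The adjusted p of Dll4 with Notch2 ran from 0.0042 to 0.636 over the alternatives and that of Dll4 with Jag1 from 0.0229 to 0.636. Median centring left Notch2 with Hey2 at 0.93 and raised the number of pairs past the threshold to 13.

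**Figure D5:**
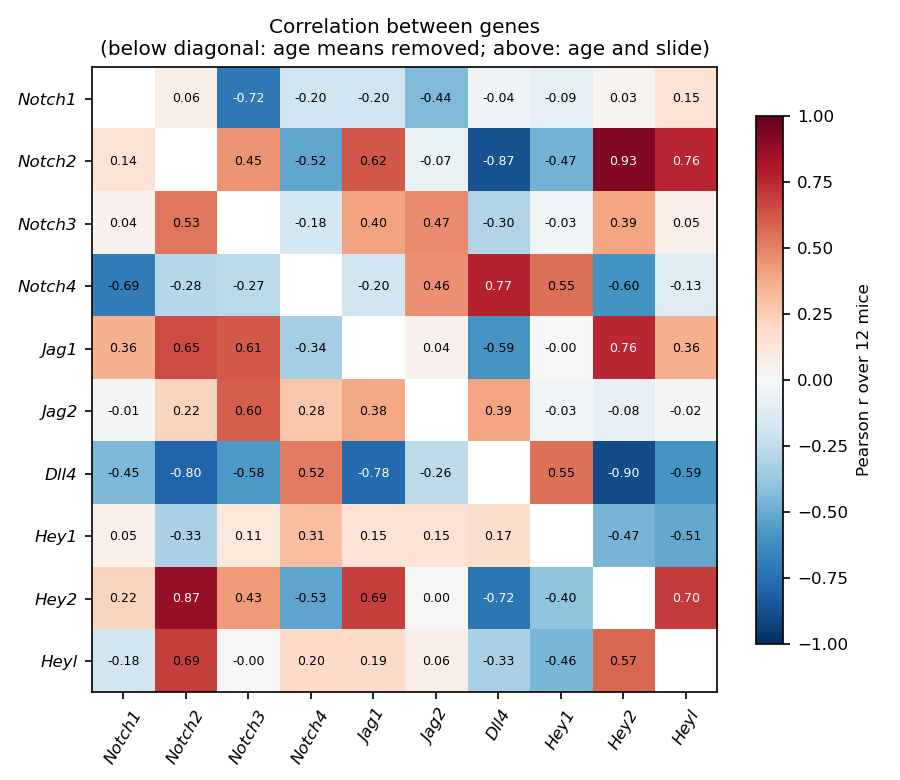
Pearson's r for each of the 45 pairs over the 12 mice, with age means removed (below the diagonal) and with age and slide means removed (above it); red is positive and blue negative. Notch2 with Hey2 is the deepest red on both sides, at 0.87 and 0.93, and Dll4 is blue against Notch2, Jag1 and Hey2.

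For each gene, the 3 named genes of all 16759 with the most similar pattern were taken by Pearson's r over the 12 mice, age means removed, as a description without a test. The points share arrays and scaling. Hey2 went with Gng8 (r = 0.98), Pkia (0.97) and Ldb3 (0.96), and Notch2 with Cibar1 (0.97), Smo (0.95) and Arhgap44 (0.95). Notch4 went with Arhgef28 (0.97), Tarsl2 (0.96) and Mrps9 (0.95), and Heyl with Zfp414 (0.96), Vmac (0.96) and Foxo6 (0.94). Within the 9 arrays r was 0.89 or more for each of these 12, the lowest being Mrps9 with Notch4. They were picked for a high r over the 12 arrays, which include these 9, so that is no separate check. For Notch1 they were H2ax (0.95), Ccnd3 (0.89) and Spsb4 (0.86), for Notch3 Etv5 (0.92), Pspc1 (0.91) and Acan (0.90), and for Jag1 Rsbn1l (0.94), Pcnx (0.94) and Cggbp1 (0.93). For Dll4 they were Kng1 (0.92), Syne4 (0.92) and Lipa (0.92), for Hey1 Spire1 (0.92), Slx4ip (0.90) and Hinfp (0.88), and for Jag2 Ebag9 (0.92), Nbas (0.89) and Xpnpep2 (0.88). Nbas and Xpnpep2 fell to 0.64 and 0.58 with Jag2 within the 9 arrays. The share of all genes with an r beyond 0.8 in either direction was 4.83% for Hey2, 4.69% for Notch2, 4.65% for Notch4 and 4.18% for Dll4, and from 0.125% for Hey1 to 1.63% for Jag1 among the other 6.

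Promoters were read for 8 of the 10 genes, all but Hey1 and Heyl, from RefSeq windows of 300 bases in GRCm38.p6. The core of the RBPJ site, TGGGAA on either strand, was in 1 of the 8 windows, that of Hey2, with 2 matches, and in 25.6% of all 32851 windows. The E-box CACGTG, which reads the same on both strands and which Hey repressors can bind, was in 0 of the 8 and in 7.15% of all. The related CACGCG, on either strand, was in 4 of the 8 (Notch2, Jag1, Jag2 and Dll4) and in 9.27% of all. CACGTG and CACGCG share their first 4 letters and cannot match at the same position, and a match describes the sequence and is not a bound site. The stretch around the Hey2 match is shown because it holds the RBPJ core. It lies at chr10:30842973-30843002 on the minus strand (GRCm38.p6), with the match, in capitals and read on the gene's own strand, 207 bases before the start of the gene.
Hey2 promoter: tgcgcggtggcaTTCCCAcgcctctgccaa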

How the data were processed

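RNA from the aorta of 12 mice was hybridised to Agilent single-colour (Cy3) arrays. Per the file headers, the authors scanned them with Agilent Feature Extraction 10.7.1.1, whose probe positions refer to mm9; the deposited intensity is the processed signal, background-subtracted and detrended, with no scaling between arrays. A deposited table of log2 values, centred on each probe's median, was an alternative; its scaling is not given in the sources used here, its direction follows the scanner signal, and per array it correlated with it at 0.897 to 0.983 across probes.

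The signal was taken to log2, outlier spots were left out, repeated spots were averaged, and the 75th percentile of an array's gene probes was taken off its values. Of 55681 gene probes, 55630 were kept, and 27583 well above background on at least 6 of 12 arrays were tested. Names came by RefSeq accession (26413 probes; table of GRCm38.p6, names only), symbol (4594) or the array's own name (4515), and 20159 had none. The probe with the highest mean stood for a gene. Ages were compared with limma 3.58.1 (R 4.3.3, with the R package data.table, version 1.17.8) over all genes, Benjamini-Hochberg adjusted, called under 0.05; errors of changes are standard errors. Correlations used values with age means removed and permutation tests, which made no allowance for the means removed. Scripts were tested on simulated data. The number of arrays limits the precision, and each array is a separate mouse per the labels.

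The members, the pathway and marker lists and the rule for named genes were chosen with earlier results of these data known. The rule named the 10 members, the 2 genes of smallest p in each pathway sub-list and the 3 genes most like each member; Dll1, Dlk1, Hes1, Nrarp and Rbpj were named after their values were seen. Alternatives changed background correction (normexp, offset 50), scaling, filter, probe rule, slide and replicate blocks, array weights and the arrays included. The alternatives for marker means, and the reading within 9 arrays, were chosen after seeing the data.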

Additional observations from a re-analysis of the deposited data

Results flagged for a closer look

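In groups of 6 mice, a sample was picked out when its gap to the nearest of the others took a larger share of the group's range than the 95% critical value of Dixon's test allows. Of 70 groups examined over the members, the named pathway genes and the marker means, 7 held such a sample, where chance alone picks out about 1 in 20. Replicate 1 at 20 months accounts for 5 of them. In that mouse Hey2 was 0.0987, below the other 5 old mice, the nearest of which was at 0.47, and Pdgfrb was 3.46 against a nearest value of 3.73. Its heart muscle marker mean was 2.97 (nearest 0.19), its brown adipocyte marker mean 0.69 (nearest -0.32) and its Schwann marker mean 0.30 (nearest -0.13). Replicate 6 at 20 months was lowest for Kat2b, at 0.00999 against 0.19. Replicate 4 at 6 months had a T and NK marker mean of 1.55 against a nearest value of 0.15.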

How the results depend on the processing

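No alternative called any of the 10 members, and Notch3, Jag1, Jag2, Hey1 and Heyl kept their direction in each of the 26 fits other than the main one, single slides aside. Directions of members that were not called did turn. Without the 3 arrays with the highest heart muscle or T cell means, Notch1 was 0.068, Notch4 -0.043 and Hey2 0.049. Within slide 1 Notch2 was -0.034, within slide 2 Jag1 was 0.0051 and Hey2 0.15, and within slide 3 Notch1 was 0.15, Notch3 -0.058 and Notch4 -0.078. As the mean over its probes Notch2 was -0.19. When 1 array was left out, Notch2 ran from -0.0037 to 0.0996, Notch4 from -0.025 to 0.139, Dll4 from -0.159 to 0.052 and Hey2 from -0.13 to 0.017. The arrays whose absence turned the sign were replicate 3 at 6 months for Notch2 and Dll4, replicate 3 at 20 months for Dll4 (0.0275), replicate 5 at 6 months for Notch4, and replicates 1 and 2 at 6 months and 1 at 20 months for Hey2. The count of called genes in all, 53, was 33 with median scaling, 24 with no filter, 80 with slide as a random block, 123 with array weights and 30 without the 3 arrays, and leaving out 1 array gave 21 to 59, with 30 or fewer without replicates 3, 4 or 5 at 6 months or 2 to 6 at 20 months. With the replicate number as a block it was 6; the numbers do not pair the mice (2 of 6 same-numbered correlations of deviations exceeded 0.1, and 2 of 12 samples correlated best with their own number), and 0 members were called. Of the other pathway genes 1, Bend6, was called with array weights, at a change of 0.71 (adjusted p = 0.0377, from 0.0377 to 0.398 over its alternatives). Correlated member pairs, 3, numbered 6 with slide means removed, 0 with Spearman's rho, 0 without the 3 arrays, 0 within the 9 arrays, 1 with normexp, 1 with quantile normalization, 13 with median scaling and 0 to 6 when 1 array was left out: 0 without replicate 3 at 6 months or 1 at 20 months, 1 without replicate 4 at 6 months or 5 or 6 at 20 months, and 6 without replicate 5 at 6 months. Relations of members with marker means, 6 over all 12 arrays, numbered 9 with slide means removed, 7 with quantile normalization and 6 with median scaling. The 6 with median scaling were not the same 6. There Notch4 with smooth muscle, and Notch2 and Hey2 with brown adipocyte, did not pass (adjusted permutation p = 0.998, 0.947 and 0.555). They numbered 4 with Spearman's rho, 3 without the 3 arrays, 3 with normexp and 0 within the 9 arrays. Leaving out 1 array gave 1 to 8. The count was 1 without replicate 1 at 20 months, 3 without replicate 3 at 6 months and 2 without replicate 2, 4 or 6 at 20 months. All 12 arrays hold the 3 that stand apart in smooth muscle and brown adipocyte markers. The cause of these shifts was not tested. Signal over background limits the dim probes of Notch1 and Notch2.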
